A study of Mus musculus with 4 samples.

Results

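The 8 genes described here govern the making, transport, binding and breakdown of retinoic acid: Aldh1a1, Aldh1a2, Aldh1a3, Cyp26a1, Cyp26b1, Crabp1, Crabp2 and Rbp4. They were taken by symbol from the 32285 genes of 4 single-cell RNA-seq libraries, and each symbol matched a single gene. Proximal lower incisor tissue of mice at postnatal day 15 was used, with 2 WT and 2 Din-KO libraries, and how many mice went into each is not stated. Din-KO mice carried a germline knockout allele of Din that was derived from gene-trap embryonic stem cells and holds a LacZ reporter, so the gene was missing from every cell type and not only from the mesenchyme. The question asked of these genes was which cell types of the growing incisor carried transcripts for making retinoic acid, which carried transcripts for removing it, and whether either differed between Din-KO and WT.

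Retinoic acid is a small lipid signal made from vitamin A. Retinol reaches cells on the carrier Rbp4, is oxidized to retinaldehyde by enzymes such as Rdh10, and is turned into retinoic acid by the retinaldehyde dehydrogenases Aldh1a1, Aldh1a2 and Aldh1a3. Inside the cell it is bound by Crabp1 and Crabp2, of which Crabp2 is known to deliver it to nuclear retinoic acid receptors. The cytochromes Cyp26a1 and Cyp26b1 oxidize it to products that are cleared, and cells rich in them are classical sinks of the signal. The mouse incisor grows throughout life from stem cells at its proximal end, where dental epithelium gives rise to enamel-forming ameloblasts and pulp mesenchyme gives rise to preodontoblasts and dentin-forming odontoblasts, within a surrounding dental follicle.

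The WT replicates 1 and 2 held 6613 and 3257 barcodes with 50423655 and 32198098 unique molecular identifiers (UMIs), and the Din-KO replicates 1 and 2 held 6958 and 3674 barcodes with 54348039 and 33076212 UMIs. After filtering, 11310 cells remained, at a median of 8016 to 11587.5 UMIs per cell. No more than 4 cell barcodes were shared by any pair of libraries among the cells kept. Cells with Y-linked transcripts made up 38.9% and 36.8% of the Din-KO cells and none of the WT cells, so sex and genotype cannot be told apart where all cells are compared. The Din-KO libraries also held 1747 and 575 cells with Xist transcripts, and values from such cells alone are given for Cyp26b1. Expression was given as CPM, the UMIs of a gene scaled to the UMI total of a cell class in a library. Only 3′ ends were counted, so CPM levels were compared between cells for a given gene. Where genes are set side by side for how widely they were detected, this also depends on how well each gene was captured.

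Clusters were named from marker lists, with the retinoid genes left out of the genes used for clustering so that their own levels did not form the classes. Dental pulp-like cells numbered 4108, dental follicle-like cells 1258, epithelium-like cells 578 and preodontoblast-like cells 263. The summed epithelium markers lay between 34923 and 352004 CPM in the epithelium-like class of each library, and averaged 262 to 919 CPM in the other 3 classes. The summed preodontoblast markers averaged 6432 CPM in the preodontoblast-like class and 365 CPM or less in the other 3 classes. The follicle markers averaged 5760 CPM in follicle-like and 661 CPM in pulp-like cells, while the pulp markers were as high in follicle-like cells, at 5169 CPM, as in pulp-like cells, at 5140 CPM. The osteoblast markers Ibsp, Sp7, Ifitm5 and Alpl also summed to 1573 CPM in follicle-like cells against 482 CPM in pulp-like cells, and the follicle-like class held a cluster of 196 cells led by Spp1, Mmp13 and Ibsp. Pulp-like cells were unevenly spread, with 1827 and 216 in WT replicates 1 and 2 and 1922 and 143 in Din-KO replicates 1 and 2.

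Each of the 8 genes had its own distribution over these classes. Aldh1a2 transcripts were found mainly in dental follicle-like cells, Aldh1a3 transcripts in all 4 classes, Cyp26a1 transcripts nearly all in epithelium-like cells and Cyp26b1 transcripts mainly in follicle-like cells. Crabp1 had its highest mean in preodontoblast-like cells, and its pulp-like and follicle-like levels overlapped. Crabp2 was highest in the follicle-like cells, and Rbp4 in a subset of follicle-like cells of 2 of the 4 libraries. Aldh1a1 was at 5.77 CPM or less in all 4 classes of every library.

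**Figure D1:**
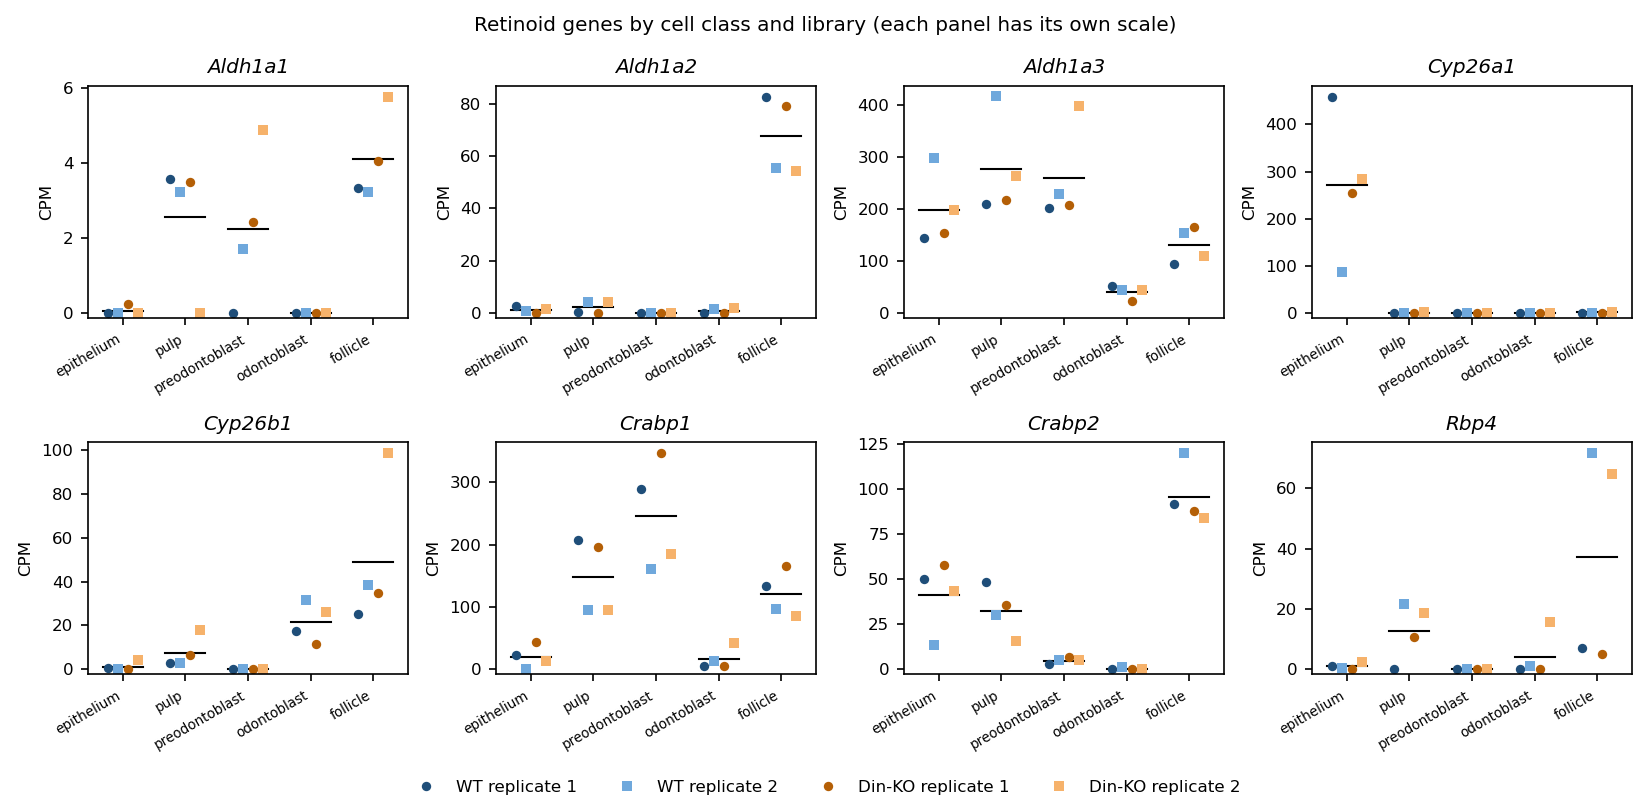
CPM of each gene (vertical axis, linear, its own scale in each panel) in 5 cell classes (horizontal axis), with 1 point per library and a bar at the mean of the 4 libraries. Cyp26a1 points stand at 87.9 to 459 CPM in epithelium and at 2.62 CPM or less in the other classes, whereas the 4 Aldh1a2 points in the follicle lie at 54.2 to 82.8 CPM.

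Of the 3 dehydrogenases, Aldh1a2, the principal retinoic acid synthesizing enzyme of embryonic mesoderm, was the most restricted. The gene is protein coding and lies at chr9:71215789-71296243 on the plus strand (GRCm38). Follicle-like cells of WT replicates 1 and 2 held 82.8 and 55.3 CPM, and those of Din-KO replicates 1 and 2 held 79.1 and 54.2 CPM. In pulp-like cells the same libraries gave 0.313, 4.04, 0.146 and 4.29 CPM, so the classes did not overlap. Values below are given in this order of libraries, WT before Din-KO and replicate 1 before 2. In epithelium-like cells it reached 2.50 CPM at most, and in the 263 preodontoblast-like cells it had no UMI, at least 118-fold lower than in follicle-like cells when summed over libraries against a floor of 3 counts. UMIs of Aldh1a2 were found in 25.1% to 31.8% of follicle-like cells and in 0.641% to 1.16% of macrophage-like cells, a class that should lack it. Median depth was 10982 to 18417 UMIs per cell in the former and 8938 to 10808 in the latter.

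Within the follicle-like class Aldh1a2 was concentrated in the cluster led by Sfrp2 and Gm26771. There it stood at 288.5 and 183 CPM in the WT and 151 and 148 CPM in the Din-KO libraries. The cluster led by Bmp3, Tnn and Nts held 11.8, 0.988, 14.0 and 4.47 CPM of Aldh1a2 in the same order. The cluster led by Spp1, Mmp13 and Ibsp was uneven, at 13.4, 82.5, 90.2 and 24.1 CPM. Among the follicle-like clusters Aldh1a2 was thus high in all 4 libraries only in the Sfrp2 cluster, in which it was also among the 10 leading genes. Sfrp2 itself is on the dental pulp marker list, while Pcp4, another leading gene of this cluster, is on the follicle list. The mean scaled marker level of this cluster among mesenchyme clusters was 0.779 for the follicle list and 0.155 for the pulp list. Clusters are compared here and below as a description, without a test. Outside the compared classes, an unnamed cluster led by Lpl, Mfap5 and Lepr averaged 162 CPM of Aldh1a2, with its libraries given further below.

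Aldh1a3, at chr7:66390890-66427517 on the minus strand and known for retinoic acid synthesis in eye and nasal tissue, was the most broadly detected of the 3. In pulp-like cells it was at 209 and 418 CPM in the WT replicates and at 217 and 265 CPM in the Din-KO replicates. Preodontoblast-like cells held 202, 229, 207 and 399 CPM, and epithelium-like cells held 144, 299, 155 and 199 CPM of Aldh1a3. These 3 ranges overlapped. Follicle-like cells held 93.8, 155, 166 and 110 CPM and odontoblast-like cells, from 9, 65, 16 and 43 cells, only 52.4, 44.8, 23.3 and 44.6 CPM. Macrophage-like cells gave 24.7 to 49.2 CPM of Aldh1a3 with UMIs in 13.6% to 28.3% of cells, and the odontoblast-like CPM values overlapped this range, although 31.2% to 60.0% of these deeper cells, at a median of 17293 to 21167 UMIs, had a UMI. In pulp-like cells the share with an Aldh1a3 UMI was 60.5% to 91.2%, above the macrophage-like share at a median depth of 6779.5 to 10392 UMIs against 8938 to 10808.

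Pulp-like clusters differed in Aldh1a3. The cluster led by Smoc2, Col8a1 and Shisa2 held 95.5 and 226 CPM in the WT replicates and 91.3 and 115 CPM in the Din-KO replicates. The cluster led by Cnmd, Stc2 and Angpt4 held 301, 426 and 341 CPM in the 3 libraries with at least 10 of its cells, which leaves out Din-KO replicate 2. Each of these 3 libraries gave a higher Aldh1a3 level in the Cnmd cluster than in the Smoc2 cluster.

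Aldh1a1, at chr19:20492715-20643465 on the plus strand, is a cytosolic dehydrogenase that also serves other aldehydes, and was at most 5.77 CPM in any of the 4 classes of any library. In pulp-like cells it was at 3.56, 3.23, 3.50 and 0 CPM, the 0 standing for no UMI in the 143 pulp-like cells of Din-KO replicate 2. Follicle-like cells held 3.34 and 3.24 CPM of Aldh1a1 in the WT and 4.06 and 5.77 CPM in the Din-KO libraries. The 578 epithelium-like cells held a single UMI of it, and the summed pulp-like level was 50.4-fold higher, with a 95% counting interval of 8.86 to 2007.

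The breakdown enzymes split between tissue layers. Cyp26a1 lies at chr19:37697798-37701536 on the plus strand and, as background, is among the best known genes switched on by retinoic acid itself. Epithelium-like cells carried 459 and 87.9 CPM of Cyp26a1 in the WT and 255 and 285 CPM in the Din-KO libraries. Pulp-like, preodontoblast-like, follicle-like and odontoblast-like cells held 2.62 CPM or less in every library, and from 95.9% to 98.3% of all Cyp26a1 UMIs of a library were in epithelium-like cells, which were 5.11% of the cells kept. The share of epithelium-like cells with a Cyp26a1 UMI was 74.5%, 24.8%, 52.0% and 36.3% in the same order of libraries, against 0% to 1.16% of macrophage-like cells.

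The epithelium held 2 clusters. The cluster led by Shh and Epcam held Cyp26a1 at 305, 555, 315 and 686 CPM. The ameloblast-type cluster led by the enamel matrix genes Amelx, Enam and Ambn held 899 and 15.2 CPM in the WT replicates and 187 and 12.4 CPM in the Din-KO replicates. Both replicate 1 libraries were thus above both replicate 2 libraries for Cyp26a1 in the enamel cluster. That cluster made up 24 of 145 epithelium-like cells in WT replicate 1, 89 of 121 in WT replicate 2, 57 of 177 in Din-KO replicate 1 and 80 of 135 in Din-KO replicate 2. Whether stage along the ameloblast lineage differed within that cluster was not tested.

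Cyp26b1, the second breakdown enzyme, is at chr6:84571414-84593908 on the minus strand and is known for guarding skeletal and germ cells from retinoic acid. In follicle-like cells its level was 25.1 and 38.3 CPM in the WT replicates and 34.6 and 98.7 CPM in the Din-KO replicates, with Din-KO replicate 2 standing far above the other 3. Pulp-like cells held 2.69 and 2.83 CPM in the WT and 6.55 and 17.9 CPM in the Din-KO libraries, all below the lowest follicle-like value. Odontoblast-like cells held 17.5, 31.5, 11.6 and 26.2 CPM of Cyp26b1, from 9, 65, 16 and 43 cells. Epithelium-like cells had 19 UMIs, 18 of them in Din-KO replicate 2. No UMI of Cyp26b1 was found in 263 preodontoblast-like cells, at least 89.5-fold lower than in follicle-like cells and at least 8.80-fold lower than in pulp-like cells.

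Within the follicle Cyp26b1 was highest in the Spp1, Mmp13 and Ibsp cluster in 3 of 4 libraries, at 39.5, 80.9, 141 and 320 CPM, and stood at 45.9, 75.3, 35.5 and 83.9 CPM in the Sfrp2 cluster. In the Bmp3 cluster it was at 6.09, 18.2, 7.24 and 57.8 CPM. In the pulp the Smoc2 cluster held 15.0, 16.9, 14.2 and 68.1 CPM of Cyp26b1, more than the Cnmd cluster in each of the 3 libraries with at least 10 of its cells, where it was at 5.68 CPM or less. Of 1258 follicle-like barcodes, 354 had an Aldh1a2 UMI, 302 a Cyp26b1 UMI and 138 had both. Barcodes that hold more than 1 cell and free RNA were not removed, and Cyp26b1 was detected in 0% to 1.16% of macrophage-like cells. Per library, Cyp26b1 was detected in 29.9% to 47.8% of follicle-like cells with an Aldh1a2 UMI and in 11.8% to 32.3% of those without, shares that also follow the depth of each cell.

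The stretch just before the start of Cyp26a1 is shown because it holds the textbook binding pattern of retinoic acid receptors, a pair of half-sites in direct repeat with 5 bases between them. The half-site searched was AGGTCA, also with G in place of its leading A, with T in place of the G before TCA, or with both, on both strands of the 250 bases before each RefSeq start on GRCm38.p6. Of 32851 such windows 29 held a match, or 0.0883%. Of the 8 genes 6 had a window, and a match was found for Cyp26a1 only. Among the other retinoid pathway genes described below Rarb, a retinoic acid receptor, also had a match, and the window of Cyp26b1 had none and is shown for comparison. Capitals mark the match, at bases 32 to 16 before the start of Cyp26a1 at chr19:37697558-37697807 (plus strand) and at bases 53 to 37 before the start of Rarb at chr14:16575477-16575726 (minus strand). For Cyp26b1 the window is chr6:84593811-84594060 (minus strand).
Cyp26a1: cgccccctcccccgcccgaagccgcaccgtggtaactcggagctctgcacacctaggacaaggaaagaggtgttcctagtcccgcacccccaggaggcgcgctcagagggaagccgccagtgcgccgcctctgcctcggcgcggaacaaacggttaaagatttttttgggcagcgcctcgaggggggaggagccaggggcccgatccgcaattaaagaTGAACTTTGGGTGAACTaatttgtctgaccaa
Rarb: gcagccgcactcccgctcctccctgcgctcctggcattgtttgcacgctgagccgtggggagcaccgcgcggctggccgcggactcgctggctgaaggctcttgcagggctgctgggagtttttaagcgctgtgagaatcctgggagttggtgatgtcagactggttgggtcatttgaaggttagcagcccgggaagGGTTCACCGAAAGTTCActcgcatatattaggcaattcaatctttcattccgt
Cyp26b1: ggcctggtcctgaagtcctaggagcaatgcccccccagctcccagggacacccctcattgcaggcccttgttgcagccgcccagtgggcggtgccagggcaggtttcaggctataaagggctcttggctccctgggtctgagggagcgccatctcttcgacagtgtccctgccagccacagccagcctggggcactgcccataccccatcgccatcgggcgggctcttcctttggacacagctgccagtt
In Cyp26a1 the half-sites are on the opposite strand, where the match reads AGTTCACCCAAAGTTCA, and in Rarb they are on the strand of the gene, as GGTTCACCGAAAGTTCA. A match describes letters only and no binding was measured here.

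The binding proteins followed other lines. Crabp1, at chr9:54764748-54773110 on the plus strand, had 290 and 161 CPM in preodontoblast-like cells of the WT and 347 and 185 CPM in those of the Din-KO libraries. Pulp-like cells held 207, 94.9, 197 and 94.5 CPM and follicle-like cells 134, 96.4, 166 and 85.6 CPM. In each of these 3 classes both replicate 1 libraries were above both replicate 2 libraries for Crabp1, and the labels do not say what the replicate number marks. Epithelium-like cells held 22.8, 1.14, 43.6 and 13.9 CPM of Crabp1, below all 3 of those classes in every library and overlapping the 7.02 to 22.7 CPM of macrophage-like cells. Odontoblast-like cells held 5.82, 13.8, 5.82 and 41.7 CPM, in contrast to the preodontoblast-like cells.

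Crabp2 lies at chr3:87948666-87953376 on the plus strand. Follicle-like cells held 91.5 and 119.96 CPM in the WT and 87.7 and 84.1 CPM in the Din-KO libraries. Epithelium-like cells held 49.9, 13.7, 57.9 and 43.4 CPM and pulp-like cells 48.7, 29.9, 35.4 and 15.7 CPM, which overlapped. Preodontoblast-like cells held 2.67, 5.08, 6.71 and 4.88 CPM, within the 2.55 to 7.74 CPM of Crabp2 in macrophage-like cells. Inside the epithelium Crabp2 sat in the Shh cluster, at 67.3, 99.6, 107 and 102 CPM, and was nearly missing from the Amelx cluster, at 0, 0.330, 0.517 and 3.38 CPM. Inside the follicle Crabp2 was highest in the Bmp3 cluster, at 136, 154, 132 and 128 CPM, against 84.4, 66.4, 55.4 and 28.2 CPM in the Sfrp2 cluster and 17.4, 23.3, 23.5 and 38.2 CPM in the Ibsp cluster. The Bmp3 cluster, rich in Crabp2, was thus the follicle-like cluster poorest in Aldh1a2.

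Rbp4, at chr19:38116629-38125281 on the minus strand, is best known as the retinol carrier that liver secretes. Follicle-like cells held 6.90 and 71.8 CPM in the WT and 4.92 and 64.8 CPM in the Din-KO libraries. Pulp-like cells held 0.188, 21.8, 10.7 and 18.6 CPM, epithelium-like cells 2.46 CPM at most, and preodontoblast-like cells no UMI. In the Ibsp cluster the contrast between replicate numbers was larger still, at 14.2 and 207 CPM of Rbp4 in the WT and 5.41 and 294 CPM in the Din-KO libraries. The replicate 2 libraries were high and the replicate 1 libraries low in both genotypes. The share of follicle-like cells with an Rbp4 UMI was 4.55%, 38.4%, 6.23% and 30.2%, against 0% to 1.16% of macrophage-like cells.

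**Figure D2:**
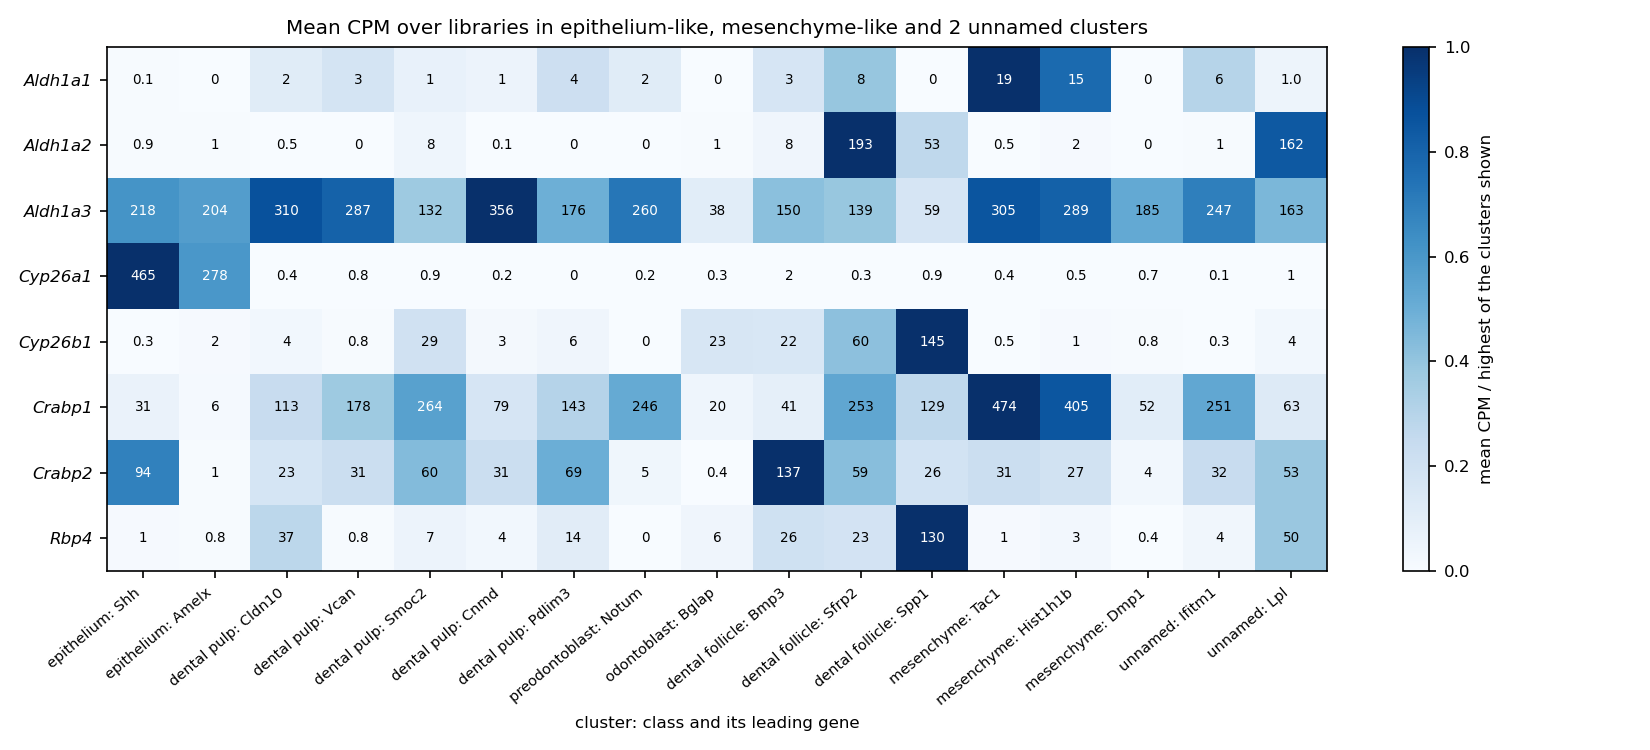
Mean CPM over libraries with at least 10 cells of a cluster (number in each cell) of each gene (rows) in epithelium-like, mesenchyme-like and 2 unnamed clusters (columns, with class and leading gene), shaded from 0 to the highest cluster of that gene. Cyp26a1 is shaded in the 2 epithelial columns, at 465 and 278 CPM, while Aldh1a2 is highest at 193 CPM in the Sfrp2 column of the follicle and Cyp26b1 at 145 CPM in the Spp1 column.

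The classes were then compared by summing UMIs per library and class and testing each class against dental pulp-like cells in edgeR, with the library as a block and adjustment over 13330 genes. The 4 libraries served as the replicates, and p-values measure only how the difference between classes varied from library to library. Classes differed at very many genes, so a count of the 8 genes is read against that background.

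In epithelium-like cells 54% of all genes tested passed the threshold (27.9% higher and 26.1% lower than in pulp-like cells), and 5 of the 8 did, 1 higher and 4 lower. Cyp26a1 was higher by 9.28 ± 0.32 on the log2 scale (SE, edgeR adjusted p = 5.4e-11), against only 18 UMIs in the 4108 pulp-like cells. Crabp1 was lower, with a log2 fold change of -2.63 ± 0.33 (adjusted p = 1.06e-05), and so was Cyp26b1, with -2.34 ± 0.55 (adjusted p = 0.00351). Aldh1a1 was lower on the strength of its single epithelial UMI (adjusted p = 0.00129; 0.0529 in the Din-KO libraries alone). Rbp4 was lower with a log2 fold change of -3.27 ± 0.99 (adjusted p = 0.0158), a call that was lost without WT replicate 2 (adjusted p = 0.0620) and without Din-KO replicate 2 (adjusted p = 0.0536). Aldh1a3 had a log2 fold change of 0.00 ± 0.25 and Aldh1a2 one of 0.82 ± 1.14. Crabp2 had a log2 fold change of 0.68 ± 0.30 and missed the threshold (adjusted p = 0.0663). In the epithelium without the Amelx, Enam and Ambn cluster, a comparison added after the values were seen, Crabp2 was higher than in pulp by 1.51 ± 0.24 (adjusted p = 8.85e-05). The cluster left out was the one seen to hold almost no Crabp2. Of 14 alternative runs, that one included, Crabp2 passed in 6, such as without WT replicate 1 (adjusted p = 0.0429) and without WT replicate 2 (adjusted p = 0.0179). It did not pass without either Din-KO replicate. Over the 14 runs its log2 fold change ran from 0.03 to 1.51 and its adjusted p reached 0.971.

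In preodontoblast-like cells 36.3% of all genes passed (18% higher and 18.3% lower), and 4 of the 8 did, 1 higher and 3 lower. Crabp1 was higher by 0.97 ± 0.30 on the log2 scale (edgeR adjusted p = 0.0189), but not without Din-KO replicate 1 (adjusted p = 0.0727) or without Din-KO replicate 2 (adjusted p = 0.107). Crabp2 was lower, with a log2 fold change of -2.51 ± 0.46 (adjusted p = 7.2e-04), but had -0.60 ± 0.32 (adjusted p = 0.136) with coarser clusters. Cyp26b1 and Rbp4, each without a UMI in this class, were lower with adjusted p = 0.00247 and 0.0197, and Rbp4 was at least 12.3-fold lower by summed counts. The call for Rbp4 was lost without WT replicate 2 (adjusted p = 0.0654) and without Din-KO replicate 2 (adjusted p = 0.0985). For Aldh1a3 the log2 fold change was 0.19 ± 0.26, so that preodontoblast-like cells held transcripts of a synthesis enzyme at a level not distinguished from pulp, together with 1 UMI of Cyp26a1 and none of Cyp26b1.

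In follicle-like cells 33.2% of all genes passed (18.1% higher and 15.1% lower), and 4 of the 8 did, 3 higher and 1 lower. Aldh1a2 was higher by 6.40 ± 0.68 on the log2 scale (edgeR adjusted p = 2.74e-05), Cyp26b1 by 2.89 ± 0.33 (adjusted p = 5.07e-05) and Crabp2 by 1.62 ± 0.29 (adjusted p = 6.03e-04). The fold of Aldh1a2 stood against only 23 UMIs in the 4108 pulp-like cells. Without the Spp1, Mmp13 and Ibsp cluster, which carries the osteoblast markers, Cyp26b1 remained higher by 2.42 ± 0.39 (adjusted p = 5.73e-04). That comparison was added after the values were seen. Aldh1a3 was lower, with a log2 fold change of -0.96 ± 0.26 (adjusted p = 0.00948), although not without WT replicate 1 (adjusted p = 0.0613). Rbp4 had a log2 fold change of 1.47 ± 0.63 and did not pass (adjusted p = 0.0992), but did without Din-KO replicate 1, at 2.38 (adjusted p = 0.0151). Crabp1, at -0.17 ± 0.29, Aldh1a1, at 0.43 ± 0.50, and Cyp26a1, at 1.24 ± 0.50, did not pass.

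**Figure D3:**
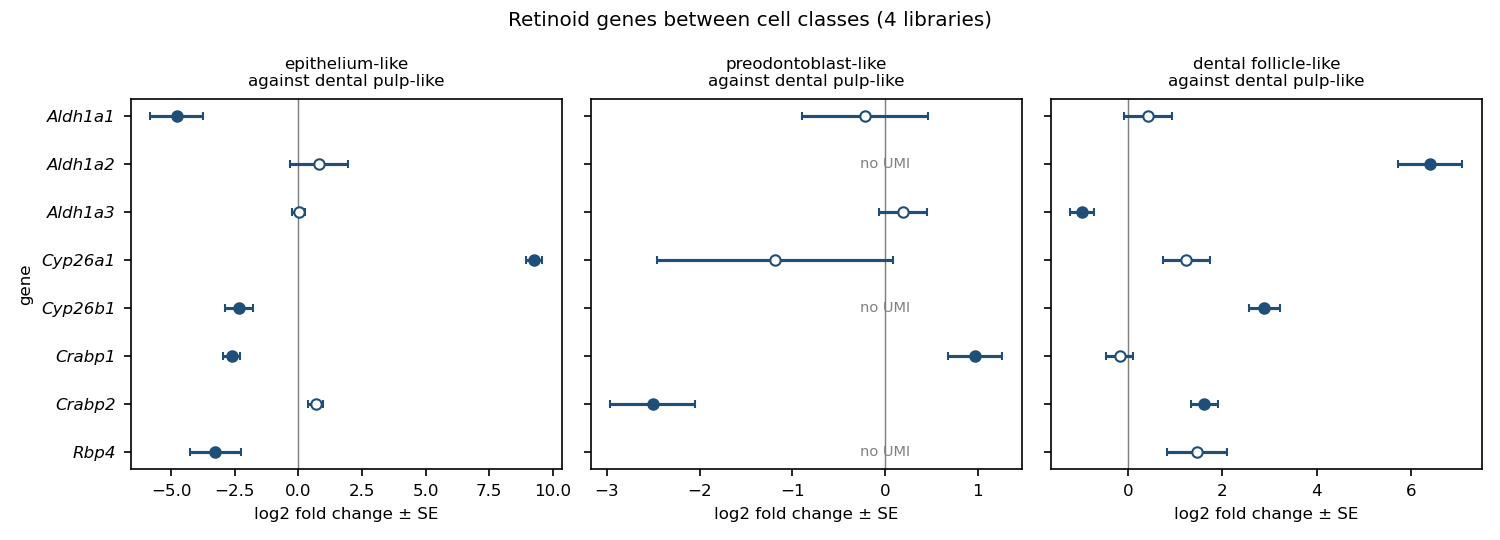
Log2 fold change ± SE (horizontal axis, its own scale in each panel) of each gene in 3 cell classes against dental pulp-like cells over 4 libraries, filled where the adjusted p is under 0.05. Cyp26a1 stands alone to the right in epithelium at 9.28, and Aldh1a2 at 6.40 in the follicle, while "no UMI" marks genes absent from the counts of preodontoblast-like cells.

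The steps around these 8 genes were followed in 45 further genes of the pathway. Of 17 enzymes that interconvert retinol and retinaldehyde, 10 were tested, and none was higher than in pulp in any class. In epithelium-like cells 6 were lower, in preodontoblast-like cells 3 and in follicle-like cells 3, with median log2 fold changes of -0.76, -0.49 and -0.39 beside medians of 0.02, -0.05 and 0.01 over all genes. Of all genes tested, 26.1%, 18.3% and 15.1% were lower and 27.9%, 18% and 18.1% higher in these classes. Rdh10, the dehydrogenase that feeds the Aldh1a enzymes, was at 207 to 257 CPM in pulp-like cells, 32.6 to 76.8 CPM in follicle-like, 39.5 ± 18.0 CPM (SD, n = 4) in preodontoblast-like and 5.42 to 9.18 CPM in epithelium-like cells. Its log2 fold changes were -4.51 ± 0.29 in epithelium (edgeR adjusted p = 1.58e-08), -2.36 ± 0.27 in preodontoblasts (adjusted p = 1.46e-05) and -2.24 ± 0.24 in the follicle (adjusted p = 7.9e-06). Rdh10 in the pulp-like cells of every library was above all values of the other 3 classes. Dhrs3, which returns retinaldehyde to retinol, was lower in preodontoblast-like cells by a log2 fold change of -1.85 ± 0.39 (adjusted p = 0.00207) and in follicle-like cells by -1.57 ± 0.32 (adjusted p = 0.00183).

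Of 11 genes for retinol uptake and storage 2 were tested. Stra6, the membrane receptor for Rbp4, was lower in follicle-like cells, with a log2 fold change of -2.04 ± 0.37 (adjusted p = 6.48e-04), and in epithelium-like cells, with -3.12 ± 0.47 (adjusted p = 5.98e-05). Fabp5, a fatty acid binding protein that can also carry retinoic acid, was higher in all 3 classes than in pulp, by 3.73 ± 0.42, 2.0 ± 0.41 and 3.62 ± 0.42 in epithelium, preodontoblasts and follicle (adjusted p = 4.16e-06, 0.00181 and 1.23e-05). The third breakdown enzyme, Cyp26c1, had too few counts to be tested between classes, with 33 UMIs in epithelium-like cells and none in the other 3 classes.

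All 6 retinoic acid receptor genes were tested. In epithelium-like cells 4 were lower and none higher, in preodontoblast-like cells 2 lower and 1 higher, and in follicle-like cells 4 lower and 1 higher. Over all genes 26.1%, 18.3% and 15.1% were lower and 27.9%, 18% and 18.1% higher in these classes. The median log2 fold changes of the receptors were -0.83, -0.22 and -0.59, beside 0.02, -0.05 and 0.01 over all genes. Rarb, which carries the repeat shown above, was lower in each class. It was at 55.1 to 87.6 CPM in pulp-like cells and at 3.21 to 8.10 CPM in epithelium-like cells, a log2 fold change of -3.09 ± 0.28 (adjusted p = 4.72e-07). The 2 genes with the repeat therefore went in opposite directions between epithelium and pulp. Rxrg was higher in preodontoblast-like cells by 3.22 ± 0.33 (adjusted p = 6.25e-06), at 13.4 and 4.23 CPM in the WT and 24.4 and 18.8 CPM in the Din-KO libraries against 0.808 to 2.86 CPM in pulp. A single Rxrg UMI lay in the epithelium-like cells, and pulp-like cells were 28.97-fold higher by summed counts, with a counting interval of 5.02 to 1162.

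Of 9 genes often used as retinoic acid targets 5 were tested. In follicle-like cells 3 were higher and 1 lower, in epithelium-like cells 1 higher and 3 lower, and in preodontoblast-like cells 2 lower, with medians of 2.02, -0.55 and -1.22 beside 0.01, 0.02 and -0.05 over all genes. Of all genes 18.1% were higher and 15.1% lower in the follicle, 27.9% and 26.1% in epithelium, and 18% and 18.3% in preodontoblasts. Tgm2, a transglutaminase, was higher in the follicle by 3.26 ± 0.36 (adjusted p = 8.47e-06), at 15.7 to 21.5 CPM against 1.13 to 2.42 CPM in pulp. Meis1, a homeobox factor, was higher in epithelium by 6.07 ± 0.61 (adjusted p = 1.25e-06) and in the follicle by 3.10 ± 0.71 (adjusted p = 0.00372), both against only 5 UMIs in pulp-like cells. Rarres2, which encodes chemerin, was lower in preodontoblast-like cells by a log2 fold change of -4.48 ± 0.41 (adjusted p = 2.57e-06) and higher in the follicle by 2.02 ± 0.27 (adjusted p = 4.5e-05). Rarres1 had no UMI in epithelium-like cells, at least 15.6-fold lower than in pulp.

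**Figure D4:**
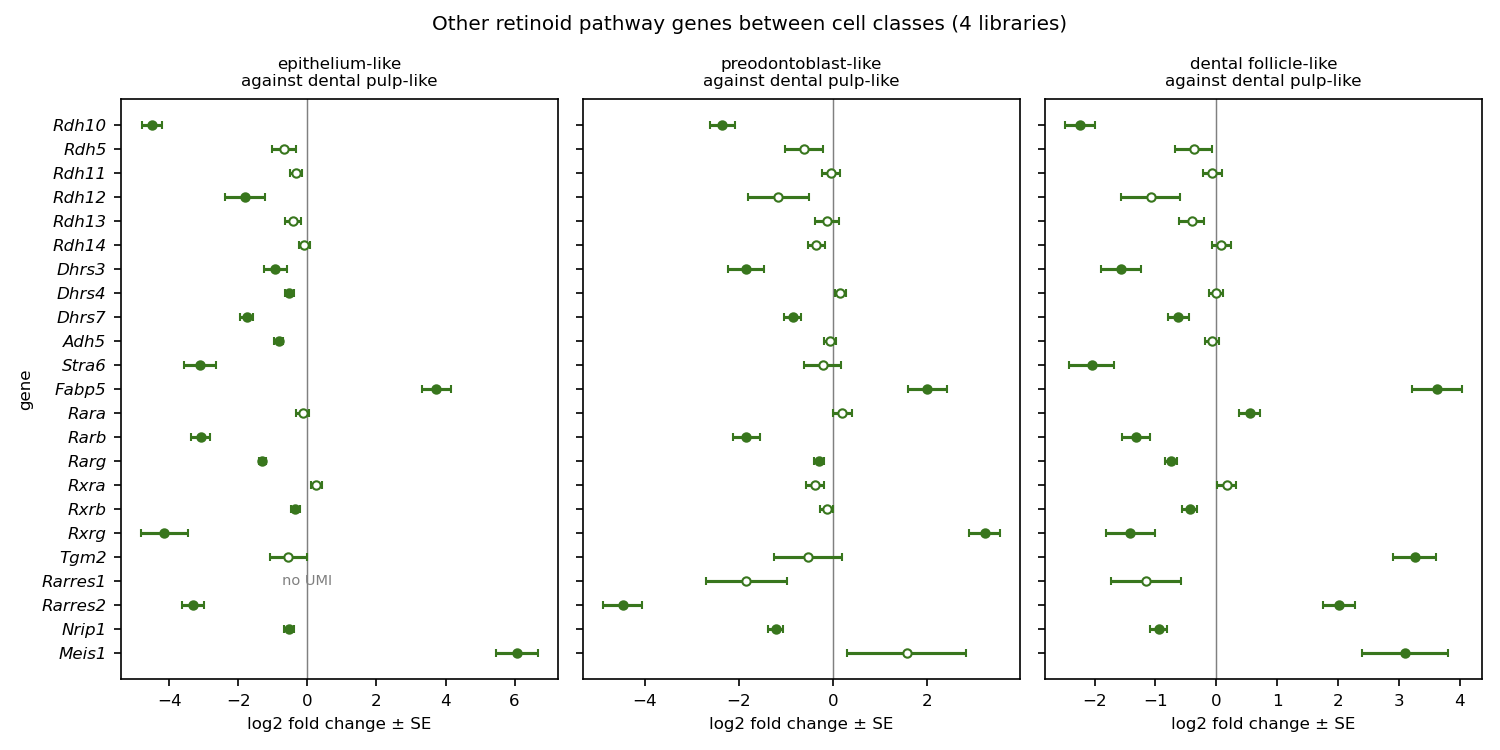
Log2 fold change ± SE (horizontal axis, its own scale in each panel) of further retinoid pathway genes in 3 classes against dental pulp-like cells over 4 libraries, filled where the adjusted p is under 0.05. Rdh10 lies left of 0 in all 3 panels, at -4.51, -2.36 and -2.24, and Fabp5 right of 0 in all 3.

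The genes whose levels ran most closely with each of the 8 were sought over 44 sums of 14 classes and 4 libraries, as a correlation of log2(CPM + 1) among 13330 genes. The sums share libraries and cell classes, so the values of r are a description. Aldh1a2 ran with Grem1 at 0.887, Gm48050 at 0.883 and Tmem215 at 0.880. Aldh1a3 ran with Dync2h1 at 0.860, Dlx2 at 0.824 and Lgr6 at 0.814. Aldh1a1 was matched less closely, by Slc25a21 at 0.692, Eci2 at 0.653 and 2810468N07Rik at 0.635. Cyp26a1 ran with the epithelial genes Esrp2 at 0.949, Urah at 0.946 and Wnt3a at 0.943. Cyp26b1 ran with Gm27204 at 0.819, Myf5 at 0.802 and Grem1 at 0.785, so Grem1 was named beside both Aldh1a2 and Cyp26b1. Crabp1 ran with Plppr1 at 0.864, Lum at 0.846 and Dclk1 at 0.844, and Crabp2 with Prr16 at 0.838, Edn3 at 0.837 and Efcab1 at 0.832. Rbp4 ran with Ptx3 at 0.766, Sfrp2 at 0.735 and Dpep1 at 0.730. Among the 8 genes themselves, Aldh1a2 and Cyp26b1 had r = 0.724, Cyp26b1 and Rbp4 0.689, and Aldh1a2 and Rbp4 0.650, while the pair of breakdown enzymes had r = -0.082.

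Din-KO was compared with WT within each class, with 2 libraries against 2. In pulp-like cells 0.015% of 13367 genes passed the edgeR threshold, namely 2 genes, and none of the 7 retinoid genes tested did. In epithelium-like, preodontoblast-like and follicle-like cells and in all 6558 mesenchyme-like cells together no gene passed in edgeR (0%), so neither did 4, 2, 7 and 8 of the retinoid genes tested there. At an unadjusted p under 0.05 there were 144, 172, 317 and 164 genes in these 4 comparisons, and DESeq2 called 6, 1, 45 and 16 genes, none of them among the 8. In data simulated for the pulp-like comparison, 2.5% of genes changed 2-fold and 73.5% of genes changed 4-fold were recovered, so differences of 2-fold were mostly not detectable with these libraries.

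Among the retinoid genes 1 was higher in both Din-KO than in both WT pulp-like libraries, namely Cyp26b1. In pulp-like cells both Din-KO libraries, at 6.55 and 17.9 CPM, were above both WT libraries, at 2.69 and 2.83 CPM, as was so for 11.3% of all genes tested there. The log2 fold change was 1.97 ± 0.55 (edgeR adjusted p = 1.00). It ranged from 1.28 to 2.60 when each library was left out in turn, was 1.74 ± 0.50 in cells with Xist transcripts alone, which leaves out the Y-bearing cells, and rested on 50 WT UMIs and 115 Din-KO UMIs. Cyp26b1 was found in 40 of 1827 and 7 of 216 WT pulp-like cells and in 71 of 1922 and 9 of 143 Din-KO cells. The values of both replicate 2 libraries thus rested on few cells, and those by cluster on fewer still. Within the Smoc2 cluster of the pulp, Din-KO replicate 1 was slightly below both WT libraries for Cyp26b1, and Din-KO replicate 2 was above them. That cluster made up 166 of 1827 and 25 of 216 pulp-like cells in WT replicates 1 and 2. In Din-KO replicates 1 and 2 it made up 451 of 1922 and 39 of 143. Whether this make-up set the level of the whole class was not tested. In follicle-like cells the groups overlapped for Cyp26b1 and the log2 fold change was 1.00 ± 0.49 (edgeR adjusted p = 1.00). Without Din-KO replicate 2 it was 0.10 ± 0.39. It was 0.60 ± 0.55 without the Spp1, Mmp13 and Ibsp cluster, a comparison added after the values were seen. Without the filter on low counts it was 1.02 ± 0.28 and passed (edgeR adjusted p = 0.0331), in a run that called 167 of 19964 genes. Over all mesenchyme-like cells it was 1.03 ± 0.99, and -0.60 ± 0.73 without Din-KO replicate 2, so the sign there depended on that library. With the replicate number as a block it was 0.90 ± 0.16 and passed (edgeR adjusted p = 0.0198). That run called 254 of 15118 genes. The labels do not say that the numbers pair the libraries, but deviations of same-numbered libraries correlated at 0.788 in all mesenchyme-like cells.

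Crabp2 was lower in both Din-KO libraries in follicle-like and in all mesenchyme-like cells, without passing the test. In pulp-like cells the libraries overlapped, with a log2 fold change of -0.55 ± 0.43. In preodontoblast-like cells, where Crabp2 was not tested, it averaged 5.79 CPM in Din-KO and 3.88 CPM in WT. In follicle-like cells both Din-KO libraries, at 87.7 and 84.1 CPM, were below both WT libraries, at 91.5 and 119.96 CPM, as were 8.37% of genes, with a log2 fold change of -0.35 ± 0.22 (edgeR adjusted p = 1.00). Over all mesenchyme-like cells the log2 fold change of Crabp2 was -0.50 ± 0.21 (edgeR adjusted p = 1.00). Both Din-KO libraries were lower there, as were 6.41% of genes. This sum includes the follicle-like cells, which gave 2255 of its 4001 Crabp2 UMIs, so it is no separate observation. Pulp-like cells made up 1827 of 2427 and 216 of 767 of its cells in the WT replicates. In the Din-KO replicates they made up 1922 of 2786 and 143 of 578. In epithelium-like cells Crabp2 had 0.65 ± 0.51 and the libraries overlapped. Of the 8 genes, none that was tested separated the genotypes in epithelium-like cells. There 17.8% of all genes tested were higher and 3.32% lower in both Din-KO libraries. The same held for those of the 8 tested in preodontoblast-like cells, where 12.3% of all genes were higher and 12.9% lower. In all mesenchyme-like cells none of the 8 was higher in both Din-KO libraries, where 12% of all genes were. None was lower in both pulp-like Din-KO libraries, where 11.5% of genes were.

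None of the synthesis enzymes passed. Aldh1a2 in follicle-like cells had a log2 fold change of -0.10 ± 0.32 between Din-KO and WT. Aldh1a3 had -0.37 ± 0.32 in pulp-like, 0.51 ± 0.36 in preodontoblast-like, -0.57 ± 0.58 in epithelium-like and 0.10 ± 0.34 in follicle-like cells. Aldh1a1 was above both WT libraries in both Din-KO libraries of the follicle, where 15.4% of genes were, with 0.52 ± 0.43. The errors of Cyp26a1 and Rbp4 were wide. Cyp26a1 in epithelium-like cells had a log2 fold change of 0.01 ± 0.63. Rbp4 in pulp-like cells had 0.68 ± 1.38, which became 6.01 without WT replicate 2. That library held 21.8 CPM of Rbp4 against 0.188 CPM in WT replicate 1, the only WT library then left. In follicle-like cells Rbp4 had -0.25 ± 1.26.

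**Figure D5:**
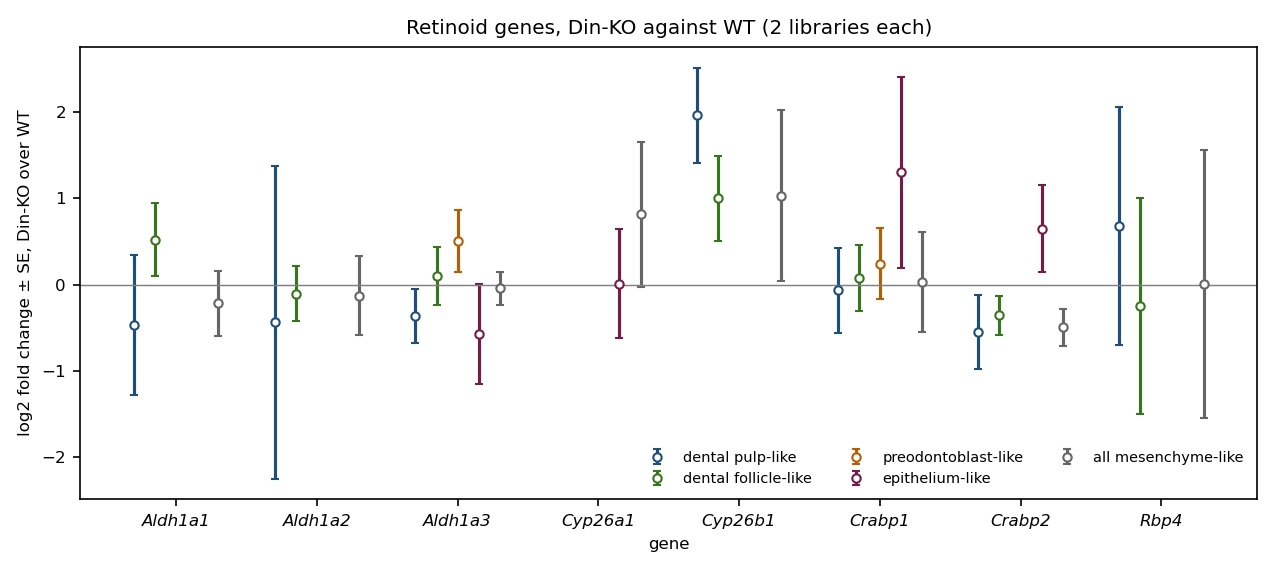
Log2 fold change ± SE of Din-KO over WT (vertical axis) for each gene (horizontal axis) in 4 cell classes and in all mesenchyme-like cells, with 2 libraries in each group and open points because none passed an adjusted p of 0.05. Cyp26b1 lies highest, at 1.97 in pulp-like cells, and the error bars of Rbp4 span more than 2 log2 units.

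Whether the Din-KO against WT difference itself varied between classes was tested as a genotype by class term over 13766 genes. For follicle against pulp 0.00726% of genes passed, which is 1 gene, and for epithelium and preodontoblasts 0% passed, and none of the 8 genes did in any of the 3. For epithelium against pulp the term was 1.46 ± 0.60 for Crabp1 and 1.28 ± 0.53 for Crabp2, both at an edgeR adjusted p of 1.00. At an unadjusted p under 0.05 there were 419, 284 and 161 genes for epithelium, preodontoblasts and follicle. None of the other retinoid pathway genes passed between Din-KO and WT in a class, or in the genotype by class term.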

How the data were processed

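Cells of 2 WT and 2 Din-KO libraries (10x Genomics 3′ chemistry) were analyzed. The authors deposited raw UMI counts from Cell Ranger 6.0.2 on mm10/GRCm38. The study's own cell filter was applied: 1000 genes or more, no more than 10% of UMIs mitochondrial and no more than 3% from hemoglobin, which kept 11310 of 20502 barcodes. Seurat 5.3.0 integrated the libraries on 2000 variable genes without the retinoid genes, regressed the cell cycle, and clustered on 30 components at a resolution of 1, giving 34 clusters. Clusters were named from 19 marker lists, where at least 3 markers were detected. Scrublet called 25 cells (0.221%), too few to have worked, and doublets were not removed.

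UMIs were summed per library and class, sums from under 10 cells were dropped, and edgeR 4.0.16 was run with TMM scaling, its low-count filter, the quasi-likelihood test and Benjamini-Hochberg adjustment at 0.05, with library as a block between classes and no covariate between genotypes. Alternatives were DESeq2 1.42.0, its size factors, no filter, each library left out, a replicate block, WT or Din-KO libraries alone, other cell selections and clustering, and cells thinned to 2000 UMIs. The method was tested on simulated counts. In 13330 genes, it recovered 68% of genes changed 2-fold between epithelium and pulp, with 1 false call, and 88% of those changed 4-fold, with 7. The simulated comparison of genotypes in pulp gave 1 false call at 2-fold and 6 at 4-fold. With 2 libraries a group, the smallest exact permutation p is 0.333. Intervals and floors (3 counts over a class) cover counting error only, and free RNA was not removed. Summed UMIs per library were 4675814 to 7719509 in follicle-like, 1397206 to 15991346 in pulp-like, 2804426 to 4466696 in epithelium-like and 1122297 to 1639533 in preodontoblast-like cells.

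The members and lists were chosen with earlier results of these data known. Genes named were the 8 members, the 3 pathway genes with the largest fold per direction and class, the 3 genes most like each member, markers, and sex genes. Rarb and Cyp26c1, and Stra6 in the epithelium, were named after their values were seen. Gene positions came from GENCODE vM21 and promoters from RefSeq, which had 42 of 53 listed genes. The 3′ tags cannot check the Din-KO labels. Results of some genes are not reported here. The study's trajectory and cell communication analyses were not repeated.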

Additional observations from a re-analysis of the deposited data

Results flagged for a closer look

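In clusters outside the 4 compared classes, the mean CPM of 3 genes stood above the highest single library of any of those classes. The mesenchyme-like clusters of no finer name were still part of the sum of all mesenchyme-like cells that was compared between genotypes. The unnamed and erythroid-like clusters were in no comparison. The values are given without a test. By the weaker measure of the highest class mean, Rbp4 (50.2 CPM in the Lpl, Mfap5 and Lepr cluster, 37.1 in the follicle) and Aldh1a3 (305 CPM in the Tac1 cluster and 289 CPM in the Hist1h1b cluster, 277 in pulp) did so too. Crabp1 averaged 474 CPM over the 4 libraries in a mesenchyme-like cluster of no finer name led by Tac1, Lypd1 and Dlx6os1 (616, 404, 619 and 255 CPM in WT replicates 1 and 2 and Din-KO replicates 1 and 2). It averaged 405 CPM in a second such cluster led by the proliferation genes Hist1h1b, Top2a and Pclaf.

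Aldh1a2 averaged 162 CPM in an unnamed cluster led by Lpl, Mfap5 and Lepr, with 98.6 and 247 CPM in the WT and 175 and 128 CPM in the Din-KO libraries, from 156 cells. Aldh1a1 averaged 19.4 CPM in the Tac1 cluster, where 49.9 CPM in WT replicate 2 stood above 6.43 to 10.8 CPM in the other libraries, 15.0 CPM in the proliferating cluster, and 5.80 CPM in an unnamed cluster led by Ifitm1, Stbd1 and Chn1. It averaged 42.6 CPM in 83 erythroid-like cells, with 38.2 and 132 CPM in the WT libraries and no UMI in the Din-KO libraries, which held only 14 and 10 such cells.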

How the results depend on the processing

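Of 321 fold changes of the 8 genes between classes under an alternative, 293 kept their side of the threshold, 10 came to pass and 17 no longer passed, and 18 that did not pass changed sign. Aldh1a1 in preodontoblast-like cells reversed, from -0.22 to 1.84, at a clustering resolution of 0.5. Of 363 fold changes between Din-KO and WT, 360 stayed on their side and 3 came to pass, and 52 that did not pass changed sign. Calls of Aldh1a2 and Cyp26b1 in the follicle and of Cyp26a1, Cyp26b1 and Crabp1 in epithelium held in every alternative run.

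The runs below had fewer libraries or UMIs, thinning left 6636 genes tested against 13330, and the cause of the moves was not tested. Counts of genes called between classes moved by over 1.5 times as follows. With WT libraries alone they were 3595 in epithelium, 895 in preodontoblasts and 1261 in the follicle, with Din-KO libraries alone 2961 in preodontoblasts and 2371 in the follicle, and after thinning 2640, 1433 and 1702. Without Din-KO replicate 1 the counts were 3105 in preodontoblasts and 2839 in the follicle. Leaving out any other library gave 3568 to 4589 and 3341 to 4132, which is within 1.5 times of the main counts of 4841 and 4422. Of the 8 genes, WT libraries alone called 1 in preodontoblasts, beside 895 of all 12615 genes tested, and 2 in the follicle, beside 1261 of 12615. In preodontoblasts thinning called 2 of the 6 that were then tested, beside 1433 of 6636 genes. Leaving out Din-KO replicate 2 called 2 of the 8 there, beside 3686 of 13437 genes. Calls lost with WT libraries alone were Rbp4 in epithelium, Cyp26b1, Crabp1 and Rbp4 in preodontoblasts, and Aldh1a3 and Crabp2 in the follicle. The highest mean was in pulp for 1 gene, Aldh1a3, and in preodontoblasts for 1. After thinning, which put Aldh1a3 highest in preodontoblasts, the counts were 0 and 2, and with wider cell filters 2 were highest in preodontoblasts.

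Between Din-KO and WT, DESeq2 called 19 genes in pulp, 6 in epithelium, 1 in preodontoblasts, 45 in the follicle and 16 in all mesenchyme. Without a filter on low counts 65 of 20796 genes were called in pulp, 30 of 16535 in preodontoblasts, 167 of 19964 in the follicle and 10 of 22806 in all mesenchyme. Among those of the follicle was Cyp26b1 (1 of the 8, log2 fold change 1.02, edgeR adjusted p = 0.0331). With cells named one by one 4 were called in pulp and with Xist cells only 0. In the follicle 2 were called after thinning and 2 after removal of the 5% of cells with the highest Scrublet scores in each library. Leaving out 1 library gave 3 to 62 genes in pulp, 0 to 34 in preodontoblasts (0 without either WT library, 17 and 34 without a Din-KO library), 14 to 87 in the follicle and 0 to 4 in all mesenchyme. In that setting the lone library was assumed to vary like the other group, and 1 of the 8 genes, Rbp4, was called in pulp. For the genotype by class term such counts were 0 to 3 in epithelium, 0 to 1 in preodontoblasts and 0 to 1 in the follicle. The cause was not tested.

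Replicate numbers were not shown to pair the libraries. Deviations of same-numbered libraries correlated at 0.518 in pulp, 0.526 in epithelium, 0.470 in preodontoblasts, 0.604 in the follicle and 0.788 in all mesenchyme, from 2 pairs. With a replicate block 102 of 13367 genes were called in pulp, 28 of 9175 in preodontoblasts, 73 of 12755 in the follicle and 254 of 15118 in all mesenchyme. Those of all mesenchyme included 1 of the 8, Cyp26b1 (0.90, edgeR adjusted p = 0.0198), and the block changed no other call of the 8.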
